A study of Homo sapiens with 21 samples.

Results

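The cardiac myosin heavy and light chains are described here across human cardiomyocyte differentiation and after loss of UBE2B. The members were 10 genes, the heavy chain genes *MYH6*, *MYH7* and *MYH7B* and the light chain genes *MYL2*, *MYL3*, *MYL4*, *MYL7*, *MYL6*, *MYL6B* and *MYL9*, and every transcript listed under these symbols in the 6 deposited tables was taken. At least 1 table listed 37 of their transcripts, in 9 of the 10 genes, among 21537 transcripts of 11851 genes listed in the whole series. GENCODE 44 annotates 84 transcripts for the 10 genes and does not hold 1 of the 37. They made up 87 entries, and all 87 passed both limits of a call. *MYL6B* was listed in no table, and these tables list only transcripts with a q-value of at most 0.05, so nothing is known here of its level.

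Poly-A RNA was sequenced from PGP1, an established human induced pluripotent stem cell (iPSC) line, as undifferentiated iPSCs and on the way to heart muscle, in mesoderm (M), then cardiac mesoderm (CMes), then progenitors of the heart (CP, cardiac progenitors) and last in cardiomyocytes (CM), with 3 libraries of wild-type cells at each of the 5 stages. A further 6 libraries were from CMs of UBE2B-/- line 1 and UBE2B-/- line 2, 3 of each. Both lines carry inactivating mutations of *UBE2B*, an E2 ubiquitin-conjugating enzyme of the complex that places ubiquitin on histone H2B, were made in separate CRISPR experiments and come from picked colonies, so each stands for 1 edited line. Each replicate was a separate differentiation. CMs were selected with lactate, and the UBE2B-/- CMs were taken from wells that beat. The tables hold no value per library. What follows therefore gives the group means and errors of the authors' fit, and the depth of a library is unknown here.

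In the thick filament, each myosin molecule is a pair of heavy chains whose heads carry an essential and a regulatory light chain. *MYH6* encodes the fast alpha and *MYH7* the slow beta cardiac heavy chain, and human ventricles shift toward beta as they mature. *MYL7* and *MYL4* encode the atrial regulatory and essential light chains, which early heart muscle of all chambers also uses, while *MYL2* and *MYL3* encode their ventricular counterparts. *MYL9*, *MYL6* and *MYL6B* encode light chains of smooth muscle and non-muscle myosin, and *MYH7B* encodes an ancient slow-type heavy chain.

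Among these genes 2 pairs are neighbors, which matters for the counting. On chromosome 14 of GRCh38, *MYH6* (chr14:23381982-23408273, minus strand) and *MYH7* (chr14:23412740-23435660, minus strand) are adjacent and nearly identical in sequence, so reads shared by both could be split between them with error. On chromosome 12, *MYL6* (chr12:56158346-56163496) and *MYL6B* (chr12:56152256-56159647) overlap on the plus strand, and *MYL2* lies farther along the same chromosome (chr12:110910819-110921443, minus strand). *MYL3* is at chr3:46835111-46882178, *MYL7* at chr7:44138864-44141332, *MYL4* at chr17:47200446-47223679, *MYL9* at chr20:36541497-36551447 and *MYH7B* at chr20:34955810-35002437.

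Sequences of *MYL6* are shown first, because the listed transcripts of this gene moved in opposite directions in the UBE2B-/- lines and differ by small exons. A cassette exon of 45 bases (chr12:56160626-56160670, plus strand) is present in MYL6-202, MYL6-210, MYL6-216 and MYL6-218 and absent from MYL6-207 and MYL6-211. It brings its own stop codon, so the transcripts with and without it end their coding sequence differently. MYL6-217 holds an exon of 39 bases (chr12:56158902-56158940, plus strand) that lies between the second and the third exon of MYL6-207, and its annotation ends before the place of the cassette. The sequences below are those of GENCODE 44 on GRCh38, with the last coding bases and the stop codon in capitals. The skipped form is shown from chr12:56161387-56161415. The 26 coding bases of either end match at 11 places.
Cassette exon of MYL6: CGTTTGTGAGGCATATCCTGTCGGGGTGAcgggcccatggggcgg
End of the coding sequence without the cassette: AGCTCGTCCGCATGGTGCTGAATGGCTGA
Exon of MYL6-217, coding sequence not defined: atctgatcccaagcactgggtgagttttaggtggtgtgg

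Promoters are shown for *MYH6* and *MYL7*, which rose at consecutive transitions and whose RefSeq start coincides with the start of the leading transcript. RefSeq windows on GRCh38.p14 were matched by symbol for 5 of the 10 members, and *MYH7*, *MYH7B*, *MYL2*, *MYL4* and *MYL9* had no entry. The 250 bases before the start were searched on both strands for the M-CAT element (CATTCC), the TATA box (TATAAA), the GATA core (GATAA), the CArG box and the MEF2 site, the latter pair by name. Capitals mark a match, and no match overlapped another. The *MYH6* window (chr14:23408274-23408523, minus strand) held an M-CAT match on the other strand, 238 to 233 bases before the start, and a TATA match 30 to 25 bases before it. It held no GATA, CArG or MEF2 match. The *MYL7* window (chr7:44141333-44141582, minus strand) held an M-CAT match on the other strand, 139 to 134 bases before the start, a CArG match 61 to 52 bases before it and a GATA match 41 to 37 bases before it. It held no TATA or MEF2 match. Of 34943 RefSeq windows of this length, 11.9% held an M-CAT match, 10.8% a TATA match, 20.5% a GATA match, 1.16% a CArG match and 2.81% a MEF2 match. A match is a run of letters and not a measured site.
MYH6: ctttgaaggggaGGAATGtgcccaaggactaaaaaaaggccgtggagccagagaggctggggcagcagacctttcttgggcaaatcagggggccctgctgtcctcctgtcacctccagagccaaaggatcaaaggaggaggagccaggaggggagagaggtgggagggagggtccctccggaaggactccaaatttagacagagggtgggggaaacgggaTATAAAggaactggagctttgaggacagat
MYL7: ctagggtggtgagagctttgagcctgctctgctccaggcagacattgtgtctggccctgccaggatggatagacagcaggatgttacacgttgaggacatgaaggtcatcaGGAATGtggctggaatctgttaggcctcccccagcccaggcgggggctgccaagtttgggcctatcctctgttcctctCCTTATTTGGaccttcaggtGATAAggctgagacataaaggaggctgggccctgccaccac

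The values below are transcript-level estimated counts from Kallisto, normalized between libraries in Sleuth. A change is the Sleuth effect on a log2 scale, later minus earlier stage or UBE2B-/- minus wild type, with its standard error. Calls required a fold of at least 1.79 in either direction together with the q-value limit of 0.05. The leading transcript of a gene is its most abundant listed one. Levels are back-transformed means of log counts. Unless another scale is named, they were brought to the scale of the CP to CM table by a constant offset per table. The tables had been scaled separately. Each transition rests on 6 libraries, 3 of each stage, and neighboring transitions share the libraries of 1 stage.

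No member was listed between iPSC and M. In that comparison 1.24% of 68446 tested transcripts were called higher and 1.62% lower at M. From M to CMes the listed members were all light chains, with 15 transcripts of *MYL3*, *MYL4*, *MYL7*, *MYL6* and *MYL9*, all called higher. Of all tested transcripts, 3.81% were called higher and 2.65% lower. The tables show a member only where it passed, so these shares are background and no contrast is read from them here or at the later comparisons. For 8 of the 15, every M library was at 0, and their fitted changes depend on the pseudocount of 0.5. The median log2 change was 5.78 as fitted and 3.305 with those 8 put at their bound against a floor of 3 counts. For all transcripts called higher at that step the same medians were 2.01 and 2.00. With a t distribution in place of the normal one that the deposited q-values use, 0 members were called here or at the step to CP.

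MYL4-202, the leading transcript of the atrial essential light chain, went from 0 in all 3 M libraries to 485 estimated counts at CMes on the scale of that table, at least 162-fold higher taking a mean of 3 counts as the floor. MYL7-201, the leading transcript of the atrial regulatory light chain, went from a mean of 1.18 to 531. Its M level was too low for a fold, and its log2 change was 8.35 with a standard error of 1.88, the largest among the 15 transcripts. MYL7-207, a second coding transcript of the gene, was at 0 in every M library and reached 164 counts on the scale of its own table, at least 54.6-fold higher. MYL3-202 went from 0 to 26.4 counts. At CMes the leading transcripts of both atrial light chains were therefore well above MYL3-202. MYL3-201, the more abundant listed *MYL3* transcript at CP and CM, was not listed at this transition, so its level at CMes is unknown.

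The light chains of smooth muscle and non-muscle myosin were already present at M. MYL9-202 rose from 1152 to 2749.5 counts (log2 change 1.25, standard error 0.35) and MYL6-207 from 4495 to 8966 (0.996, standard error 0.32). Both rises were near 1 log2 unit. The heavy chains *MYH6*, *MYH7* and *MYH7B* were not listed at this transition, nor was *MYL2*. Whether they changed here is unknown, so no order of rises between heavy and light chains is read.

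The CMes to CP transition was the first at which *MYH6* and *MYH7* were listed. Of 16 listed transcripts, 15 were called higher in *MYH6*, *MYH7*, *MYL4* and *MYL7*, where 3.8% of all tested transcripts were called higher, and 1 was called lower in *MYL6*, where 2.63% were. MYH6-201 rose from 16.3 to 6516 counts, a fold of 389.8 (log2 change 8.61, standard error 0.59, q-value 8.9e-46 in Sleuth's Wald test). MYH7-201 reached 104.7 counts from a mean of 1.31, with a log2 change of 5.90 and a standard error of 0.93. Both cardiac heavy chains had risen by CP, where alpha was far above beta.

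The atrial light chains rose further and less steeply. MYL4-202 went from 432 to 2497 counts (log2 change 2.53, standard error 0.42) and MYL7-201 from 531 to 2987 (2.49, standard error 0.30). The 9 listed transcripts of *MYL7* all rose. The 1 fall among the listed members at a stage transition was that of MYL6-211, which lacks the cassette and the third exon of MYL6-207. It fell by 1.57 on the log2 scale (standard error 0.24), from 236.7 to 79.7 counts.

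**Figure D1:**
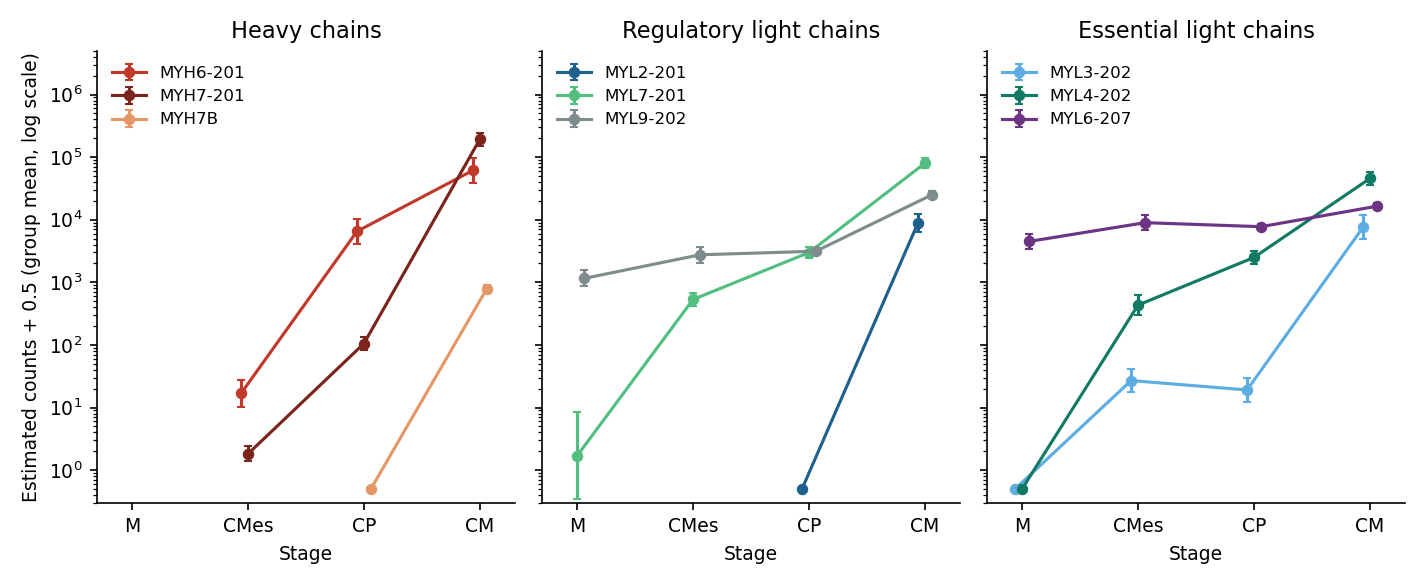
Group means of estimated counts plus 0.5 (log axis, scale of the CP to CM table) of 1 transcript per member from M to CM, 3 wild-type libraries per stage, for heavy chains, regulatory light chains and essential light chains. Bars are the residual SD within groups of the table used, points at 0.5 are stages where every library was at 0, and stages without a point were not listed. MYH7-201 lay below MYH6-201 at CP and above it at CM, and MYL2-201 went from 0 at CP to 8867 counts at CM.

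From CP to CM every listed member rose. CMs had been selected with lactate after the onset of beating. A change in the mix of cells and a change within cells cannot be told apart at this step. All 36 listed transcripts of 9 genes were called higher and 0 lower, where 8.25% of all 69937 tested transcripts were called higher and 6.99% lower. The median log2 change of the 36 was 3.34, or 3.24 with the 4 at 0 in every CP library put at their bound, beside 2.43 and 2.32 for all transcripts called higher. The changes ran from 0.91 for MYL6-211 to 14.11 for MYL2-201, and 11 of the 36 stayed called with a t distribution. Annotated as protein coding were 25 of the 36, and the others were 5 with a retained intron, 3 subject to nonsense-mediated decay, 2 with no defined coding sequence and 1 that the annotation does not hold.

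Among the heavy chains, MYH7-201 had the larger rise. It went from 104.7 to 193261 counts, a fold of 1837 (log2 change 10.84, standard error 0.27). MYH6-201 went from 6515 to 61493, a fold of 9.44 (3.24, standard error 0.53). Per kb of transcript, *MYH7* held 1.56% of the sum of both at CP and 75.6% at CM. The change of MYH7-201 exceeded that of MYH6-201 by 7.605 log2 units, with a standard error of at most 0.80. This is 1 of 4 comparisons of paralogs chosen after their values were seen, and no exact test of them was possible without values per library. One transition earlier the difference was -2.70 log2 units with a standard error of at most 1.52, and whether its 95% range takes in 0 depends on the correlation of both errors, which is not known.

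*MYH7B* also appeared, at a far lower level. Its leading transcript, ENST00000618182.4, was at 0 in every CP library and at 793 counts at CM, at least 264-fold higher, with an SD of 0.26 log2 units among the CM libraries. MYH7B-206 went from 0 to 22.5 counts and MYH7B-207, with a retained intron, from 4.41 to 59.5. The annotation used here gives no length for the leading transcript, so *MYH7B* has no place in the order of levels below.

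Among the regulatory light chains, *MYL2* was the one with no counts at CP. MYL2-201 was at 0 in all 3 CP libraries and at 8867 counts in CMs, at least 2956-fold higher, with an SD of 0.65 log2 units among the CM libraries. MYL7-201 went from 2987 to 79957 counts, a fold of 26.8 (log2 change 4.74, standard error 0.23). All 10 annotated transcripts of *MYL7* were listed and called higher, by 1.91 to 5.70. The share of MYL7-201 in the gene's listed counts per kb was 47.7% at CP and 73.4% at CM. *MYL2* made up 7.98% of the sum of MYL2-201 and MYL7-201 per kb at CM, and none of it at CP. The fitted changes of both differed by 9.37 log2 units, with a standard error of at most 0.61. The fitted change of MYL2-201 depends on the pseudocount of 0.5, because its CP level is 0.

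MYL9-202 and MYL9-201 rose together, by 2.99 (standard error 0.17) and 2.999 (standard error 0.16). MYL9-202 went from 3137 to 24965 counts and MYL9-201 from 2379 to 19027. Their shares per kb were the same at both stages to within a percentage point, 78.2% and 78.1% for MYL9-202.

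Among the essential light chains, MYL3-201 went from 35.9 to 16607 counts, a fold of 457 (log2 change 8.84, standard error 0.67), and MYL3-202 from 18.6 to 7557. MYL4-202 went from 2496 to 45629.7 counts, a fold of 18.3 (4.19, standard error 0.29). *MYL3* made up 1.37% of the sum of MYL3-201 and MYL4-202 per kb at CP and 26.0% at CM, and its change was larger by 4.64 log2 units, with a standard error of at most 0.95. In each of the 3 pairs, the gene of the ventricular or slow form rose more from CP to CM than the gene of the atrial or fast form. The ventricular light chains were still the smaller part at CM, while the slow heavy chain was the larger part.

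The 8 listed transcripts of *MYL6* rose by very different amounts. MYL6-207, which skips the cassette exon shown above, rose least among the abundant ones, from 7735 to 16430.2 counts (log2 change 1.09, standard error 0.18). MYL6-202, which holds the cassette, rose from 86.2 to 1338 (3.95, standard error 0.43), and MYL6-210, which also holds it, from 24.3 to 178.7 (2.85, standard error 0.85). MYL6-217, the transcript with the exon of 39 bases, went from 14.7 to 3232 counts, a fold of 212 (7.73, standard error 0.48). Per kb, MYL6-207 fell from 95.6% to 69.4% of the gene's listed counts while MYL6-217 went from 0.285% to 21.4% and MYL6-202 from 0.967% to 5.13%. MYL6-218, the cassette form chosen as the reference transcript of the gene, was not listed at this transition, so these shares leave it out.

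**Figure D2:**
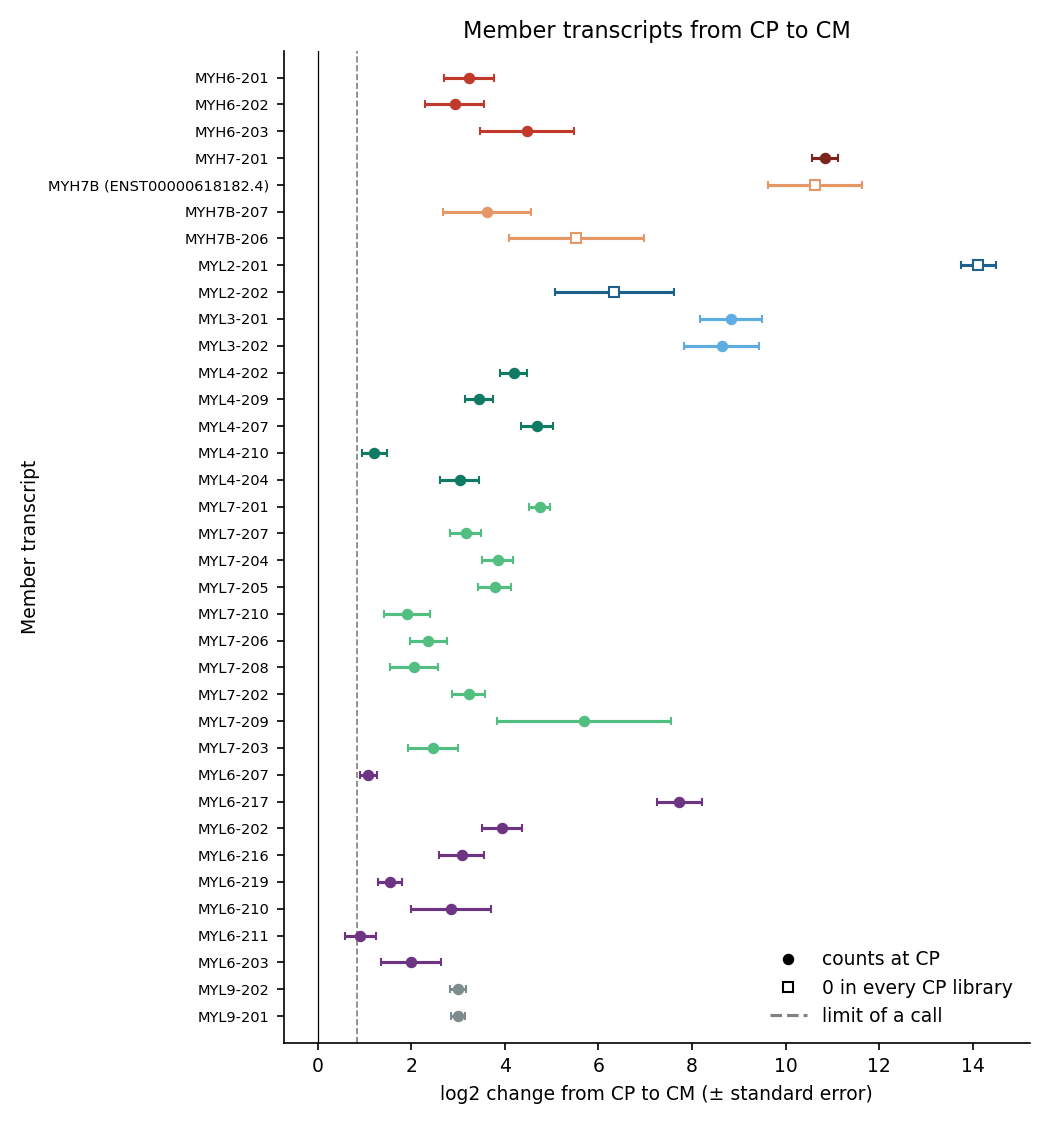
Log2 change from CP to CM with its standard error for each of the 36 listed member transcripts, grouped by gene and ordered by level at CM within a gene. Open squares mark the 4 transcripts at 0 in every CP library, whose change depends on the pseudocount, and the dashed line is the limit of a call. All 36 lie to the right of the limit, from 0.91 for MYL6-211 to 14.11 for MYL2-201.

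Levels of leading transcripts were set in order per kb of transcript length. For MYH6-201, MYL2-201 and MYL3-201 the length is that of another version of the transcript than the one counted. At CP the order was MYL6-207 with 11809.8 estimated counts per kb, MYL7-201 with 4881, MYL9-202 with 3064, MYL4-202 with 2919.8, MYH6-201 with 1097, MYL3-201 with 40.5, MYH7-201 with 17.4 and MYL2-201 with 0. Only *MYL9* and *MYL4* were neighbors in this order whose gap was within their spread, 0.07 log2 units against a combined residual SD of 0.40. At CM the order was MYL7-201 with 130649 per kb, MYL4-202 with 53368, MYH7-201 with 32066, MYL6-207 with 25084, MYL9-202 with 24380.2, MYL3-201 with 18765, MYL2-201 with 11324 and MYH6-201 with 10352. There the gaps after *MYL7* and *MYL4* exceeded the combined residual SD, and each later gap was within it. Per kb, light chains of the atrial type thus led the cardiac members at both stages. That order rests on the division by length, since by undivided counts *MYH6* was in place 2 at CP, ahead of *MYL7* in place 4 and *MYL4* in place 5. By undivided counts at CM, *MYH7* was in place 1, *MYL7* in place 2 and *MYH6* in place 3.

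In UBE2B-/- CMs, transcripts of *MYH6*, *MYL2*, *MYL4* and *MYL7* were lower where they were listed, and those of *MYL6* went both ways. The targeted gene itself was listed once, with 1 *UBE2B* transcript at a log2 change of -1.91 in line 1 (standard error 0.53), and was not listed for line 2. A small mutation need not change the RNA level, so this is only a partial check of the labels. In line 1, 6 member transcripts were listed, 4 lower in *MYL4*, *MYL7* and *MYL6* and 2 higher in *MYL6*. Among all 65457 tested transcripts, 1.72% were called lower and 2.18% higher in that line. In line 2, 14 were listed, 13 lower in *MYH6*, *MYL2*, *MYL4*, *MYL7* and *MYL6* and 1 higher in *MYL6*, where 1.53% of all tested transcripts were called lower and 2.46% higher. Both lines were compared with the same 3 wild-type CM libraries, so their changes are not independent. The deposited q-values take the normal distribution, and with a t distribution on the residual degrees of freedom 0 members were called in either line.

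Transcripts called lower in both lines numbered 3 of the 37, where 0.909% of all tested transcripts were, and 0 of the 37 were called higher in both, where 1.52% were. The 37 had already passed in at least 1 table, these among them, so the shares cannot be set against each other. The 3 transcripts were picked because both lines had passed, and their mean changes are given as a description without a test. MYL4-209, an *MYL4* transcript annotated as subject to nonsense-mediated decay, was at 1231 counts in wild type against 363 for line 1 and 374 for line 2. Its mean change over both lines was -1.74 (standard error 0.31). MYL7-202, a short coding transcript of *MYL7*, was at 487, 184.0 and 163.6 counts, with a mean change of -1.48 (standard error 0.39). MYL6-217 was at 3729.98, 1548 and 1319.8 counts, with a mean change of -1.38 (standard error 0.35). These counts, and those of all member transcripts in the UBE2B-/- lines below, are on the scale of the fit of the mutants. Wild-type CM counts on that scale therefore differ from those given above for the same libraries. Line 2 minus line 1 was 0.04, -0.17 and -0.23 log2 units for the 3. The 95% intervals ran from -0.67 to 0.75, from -1.04 to 0.70 and from -1.02 to 0.56. Since the choice of these transcripts favors similar changes, no agreement between the lines is read from the differences.

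A further 14 transcripts were listed for 1 line, 3 in line 1 and 11 in line 2. For these, the missing line's effect follows from the deposited variances up to 2 candidates, and the wild-type level in the CP to CM table settled it for 11. These transcripts were chosen because 1 line had passed, so they are given as values without a test. Of the 14 transcripts with both changes known, 12 were lower in both lines and 2 were higher in both.

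MYL2-201 was at 10232 counts in wild type against 3337 for line 1 and 1383 for line 2, with changes of -1.62 and -2.89 (standard error 0.93 for each line). Only line 2 was listed. The SD among libraries was 0.65 log2 units in wild type and 1.32 within the mutant lines. MYL4-202, the most abundant listed *MYL4* transcript, was at 52655, 25493 and 21091 counts with changes of -1.05 and -1.32 (standard error 0.40). MYL4-207 and MYL4-210 were lower too. Among *MYL7* transcripts, MYL7-205 was at 5971, 3135 and 2329 counts (-0.93 and -1.36, standard error 0.33) and MYL7-204 had changes of -0.88 and -1.20 (standard error 0.35). The lines lay farther apart for MYL7-203 (-0.80 and -1.84, standard error 0.46) and MYL7-208 (-0.71 and -1.61, standard error 0.44), a difference for which no test is given because line 2 chose them. Of the 1992 transcripts of the whole series listed for both lines, 29 had an unadjusted p under 0.05 for that difference and 0 passed after adjustment. Passing in both lines favors similar changes, so these counts cannot show whether the lines differ. MYL7-203 and MYL7-208 are not among the 1992.

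MYH6-203, a transcript of *MYH6* with a retained intron, was at 501.4, 200.7 and 116.4 counts (-1.32 and -2.10, standard error 0.63). It was the single heavy chain transcript listed in a UBE2B-/- table. MYH6-201 and MYH7-201, which carry most of the heavy chain RNA, were not listed for either line, nor was any transcript of *MYH7B*, *MYL3* or *MYL9*, nor MYL7-201 or MYL6-207. A transcript that is not listed missed the q-value limit or was not tested, and its change is unknown here.

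**Figure D3:**
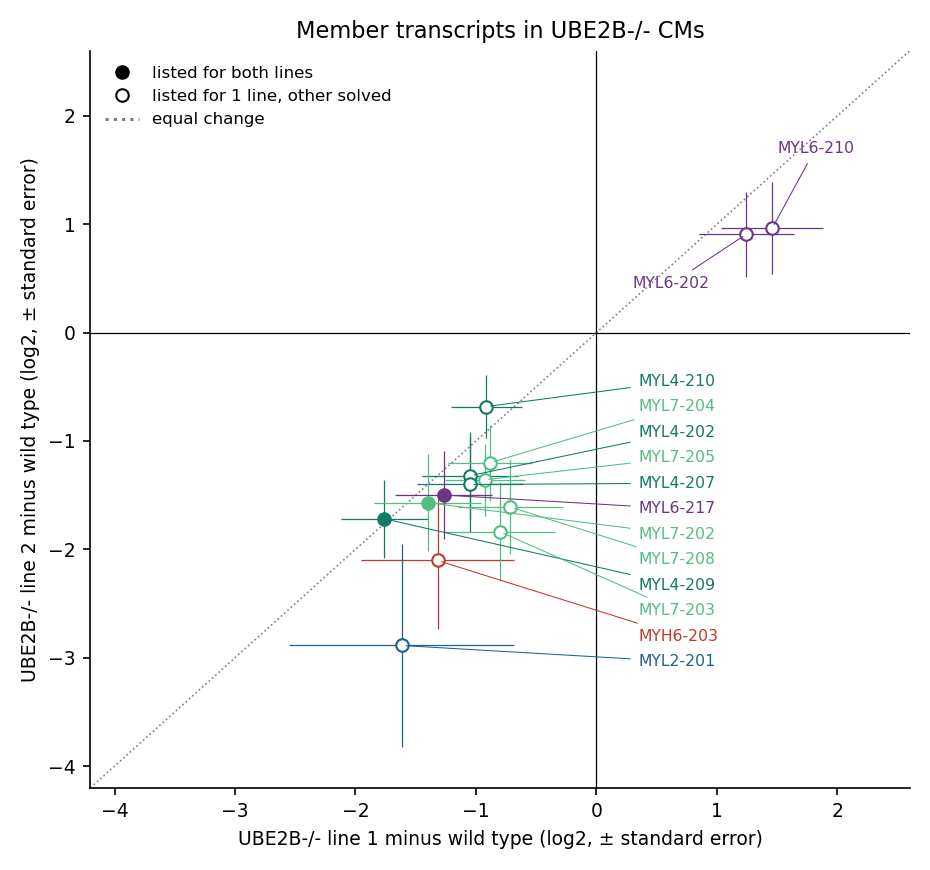
Log2 change in UBE2B-/- line 1 (x axis) and line 2 (y axis) against the same 3 wild-type CM libraries for the 14 member transcripts with both values known, with standard errors. Filled points were listed for both lines, open points for 1 line with the other solved, and the dotted line marks equal change. The 12 lower transcripts lie to the lower left of 0 and MYL6-202 and MYL6-210, which hold the cassette exon, in the upper right.

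The *MYL6* transcripts split by structure. MYL6-202 and MYL6-210, both coding and with the cassette exon, were higher in line 1 by 1.24 (standard error 0.39) and 1.46 (standard error 0.42), and the solved changes in line 2 were 0.91 and 0.96. MYL6-202 was at 1544 counts in wild type against 3653 for line 1 and 2894 for line 2. MYL6-218, the reference cassette form, rose by 0.96 in line 2 (standard error 0.32), and its change in line 1 was either 0.13 or 0.84. MYL6-216, which holds the cassette but keeps the intron between the second and the third exon of MYL6-207, where the exon of 39 bases lies, was lower in line 2 by 1.69 (standard error 0.33), and both solutions for line 1 were -0.84. MYL6-217, with the exon of 39 bases, was lower in both lines as above. Of the 4 listed transcripts with the cassette, then, the 3 annotated as coding were higher in the line where they were listed and the 1 with a retained intron was lower. MYL6-207, which lacks the cassette and was the most abundant listed one from CP to CM, was listed in neither line. The balance of the forms therefore cannot be given.

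**Figure D4:**
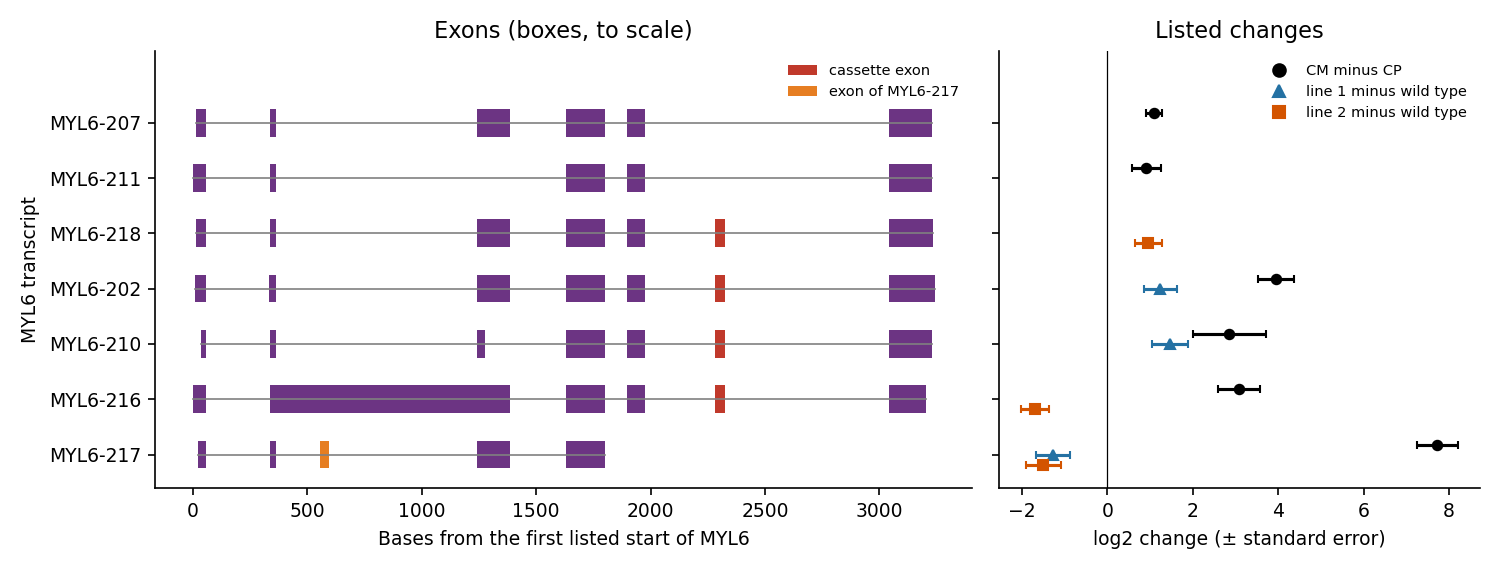
Left, exons of 7 *MYL6* transcripts as boxes to scale, in bases from the first start among them, with the cassette exon in red and the exon of MYL6-217 in orange. Right, log2 changes with standard errors for CM minus CP and for each UBE2B-/- line minus wild type, where listed. The coding cassette transcripts lie to the right of 0 in the mutants and MYL6-216 and MYL6-217 to the left.

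These are bulk samples, in which fewer cells of a type and less RNA per cell cannot be told apart. Markers of other cells moved from CP to CM and with the UBE2B-/- results, and their part in either was not tested. Over transcripts listed from CP to CM, the endoderm list went from 23572.5 to 810.7 counts and the pluripotent list from 44110 to 463.5. The mesenchymal list went from 46911.5 to 11753 and the endothelial list from 8097 to 865.3, while the smooth muscle list rose from 10637 to 35900. A gene of a marker list counted as called where at least 1 of its transcripts was called. No background share stands beside these counts, because the number of genes tested is not known. The cardiomyocyte list was called higher in 10 of 10 genes from CP to CM. In the mutants 7 of its genes were called lower in line 1 and 8 in line 2, with none higher in either line. Summed levels can be given only over transcripts that passed in the comparison at hand. They describe transcripts chosen for their change and not the whole list. For the lines, these passed in a UBE2B-/- table. All sums are on the scale of the CP to CM table. Over 22 such transcripts of 8 cardiomyocyte genes the sum was 334419 counts in wild type against 135038 for line 1 and 109447 for line 2. The mesenchymal list (*COL1A1*, *COL1A2*, *COL3A1*, *LUM*, *DCN* and *POSTN*) was called higher in 2 of 6 genes in line 1 and 5 of 6 in line 2, with none lower, and the sum over 11 such transcripts, with 2 more left out for want of a value in 1 line, was 11000.1 counts in wild type against 107549 for line 1 and 256307 for line 2. Most of that sum was *COL3A1*, with 8111 counts in wild type, 81835 for line 1 and 213320 for line 2. Of the smooth muscle list, *CNN1* and *LMOD1* were lower in both lines and *ACTA2*, *TAGLN*, *MYH11* and *SMTN* were not listed. No pluripotent marker was listed in either line. Of the endothelial list only *KDR*, in line 2, and of the endoderm list only *SOX17*, in line 1, was called, both higher.

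Chamber markers other than the members were also read. Of the atrial list, *NPPA*, which encodes atrial natriuretic peptide, went from 5.41 counts at CP to 23392 at CM and had log2 changes of -2.21 in line 1 and -3.45 in line 2 (standard error 0.66). *KCNA5* and *KCNJ3* also rose from CP to CM. In the mutants, *NR2F2* was higher in line 1 and *SLN* in line 2. Of the ventricular list, *IRX4*, *HEY2* and *LBH* rose from CP to CM and *HAND1* fell, and none of the 4 was listed in a UBE2B-/- table.

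Genes of proteins that hold or tether the thick filament were counted where at least 1 of their transcripts was called. No background share stands beside these counts of genes or those of the lists that follow, because the number of genes tested cannot be read from the tables. Of 10 thick filament partners, 6 were called higher from CP to CM, among them *TTN*, the giant spring of the sarcomere (3107 to 124336 counts), and *MYOM1*, which crosslinks myosin at the M-band (53.4 to 18646 counts), and *OBSL1* had transcripts in both directions. In each UBE2B-/- line 3 of the 10 were called lower, *TTN*, *MYBPC3* and *MYOM1*, and *OBSL1* was called higher. The log2 changes of *TTN* were -3.17 in line 1 and -2.74 in line 2 (standard error 0.69). Those of *MYBPC3*, which encodes cardiac myosin-binding protein C, were -1.26 and -1.47 (standard error 0.38).

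Of the 14 genes for myosin folding and light chain phosphorylation, 8 had a transcript called higher from CP to CM and 1, *UNC45A*, also had one called lower. *SMYD1*, a muscle methyltransferase that works with the myosin chaperone *UNC45B*, rose from 856 to 36275 counts. *MYLK3*, the cardiac myosin light chain kinase, rose by 4.58 (standard error 0.21) at the M to CMes transition, where the atrial light chains also rose, and by 2.98 (standard error 0.20) between CP and CM. In line 1, 6 of the 14 were called lower and 2 higher, and in line 2, 5 were lower and 2 higher. The changes in line 1 and line 2 were -1.42 and -1.69 for *UNC45B* (standard error 0.30), -1.44 and -1.75 for *SMYD1* (standard error 0.44) and -2.36 and -2.53 for *PPP1R12B*, a targeting subunit of myosin phosphatase (standard error 0.40). *PPP1R12C* and *UNC45A* were the 2 higher genes in both lines. *MYLK3* was called lower in line 2, with a change of -1.97 (standard error 0.58), and was not listed for line 1.

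Of 11 other sarcomeric myosin genes, the skeletal and extraocular forms among them, none was listed in any table under the symbols searched. *MYL11* was searched under this symbol only and not under an older one, so whether that gene was listed is unknown here. Of 6 non-muscle and smooth muscle myosin genes, *MYH9* and *MYH10* rose at the CP stage. From CP to CM a different *MYH10* transcript fell by 1.85 (standard error 0.22), from 11510 to 3189 counts. *MYH11*, *MYL12A* and *MYL12B* each had a transcript that rose between these stages. *MYL12B* encodes a non-muscle regulatory light chain. A transcript of this gene other than the one that rose had changes of -1.57 in line 1 and -2.21 in line 2 (standard error 0.37). *MYH14* was also called lower in line 1, and a transcript of *MYL12A* in line 2 with a change of -0.91 (standard error 0.26).

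The genes nearest in pattern were sought for the 3 members listed in the CP to CM table and both UBE2B-/- tables. Of 1219 transcripts listed in all 3, only those of other genes above a set fraction of the member's mean level were candidates. These numbered 1022 for MYL4-209, 1078 for MYL7-202 and 1047 for MYL6-217. The nearest candidate was taken by the distance over these 3 log2 changes. For MYL4-209, with changes of 3.45, -1.76 and -1.72, it was a transcript of *RBM20*, a regulator of titin splicing, with 3.43, -1.79 and -1.86 (distance 0.14). For MYL7-202 it was *POPDC3*, at a distance of 0.13, and for MYL6-217 it was *SORBS2*, at a distance of 0.16, with a change from CP to CM of 7.74 beside 7.73. The distances rest on 3 comparisons that share the wild-type CM libraries.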

How the data were processed

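The members, gene lists and alternatives were chosen with earlier results of these data known. Per the labels and the study's methods, reads had been trimmed (FASTX-Toolkit) and assigned to hg38 transcripts by Kallisto, and the authors compared groups by Sleuth's Wald test. They deposited 6 tables of p-values and q-values (Benjamini-Hochberg over all transcripts tested), cut at a q-value of 0.05. The deposited effects, errors and mean levels are on a natural log scale of estimated counts plus 0.5, and the deposited variances (a score here) are in squared natural log units. These columns are the authors' own fit. There are 0 columns of values per library, so the groups were not refitted, depth and its precision are unknown and counting intervals were not possible. Replicates came from plates started at different times, so p-values measure the spread between differentiations of 1 line.

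From these columns, Python 3 scripts (numpy, pandas, scipy) derived group means, the standard error of the mean of both lines (0.866 times that of 1 line), the difference between lines, the number of transcripts tested and, for transcripts listed in 1 line, the change in the other line. On 1152 transcripts listed for both lines this last step gave the right value for 1152, within 0.001 on the natural log scale. The steps were also tested on simulated data. Calls needed an absolute effect of at least log2(1.5) on the natural log scale, 0.585, where the authors' own lists start. Tables were aligned on the transcripts whose shared group is in both, with offsets whose SD was at most 9.7e-05 on the natural log scale. Transcripts were joined to GENCODE 44 by identifier. The version differed for 4 and 1 was absent. Named genes were all members, up to 4 called genes per further list by level, and the nearest transcript in pattern. Other genes of those lists were named after their values were seen. One gene of the thick filament list is not reported here and was left out of its counts. Pairs of paralogs were compared after their values were seen, with the sum of both standard errors as the largest possible error.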

Additional observations from a re-analysis of the deposited data

How the results depend on the processing

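No paired analysis was possible because the tables hold no value per library, and for the same reason no replicate could be left out. The counts of called members were the same with a limit on the effect of 0.405 on the natural log scale and with no limit on it. Neither is separate evidence, since every listed member was already called. The counts were also the same with each transcript's own residual variance and a t distribution, at an unadjusted p of 0.05. That setting never enlarges the error and does not adjust the p-value, so it is no separate evidence. Over all transcripts from CP to CM it took 5767 called higher to 5629 and 4886 called lower to 4695. With a q-value of at most 0.01, 11 members stayed called at the step to CMes, 15 higher and 1 lower at the step to CP and 33 at the step to CM, while line 1 kept 0 higher and 1 lower and line 2 kept 0 higher and 6 lower. With a t distribution on 4 or 6 residual degrees of freedom, which ignores the variance Sleuth shares between transcripts, 0 members were called between M and CMes, 0 in either direction between CMes and CP, 11 between CP and CM and 0 in either direction in line 1 and line 2. Over all transcripts the same setting called 0 before CMes, 1 at the step to CP, 417 higher and 144 lower at the step to CM and 0 in either line.

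Taking each line alone for the 3 transcripts listed in both could not change a call, since both lines had passed. Nor could taking the transcript with the smallest q-value in place of the leading one, but it moved the change of *MYL6* from 0.996 to 5.78 between M and CMes and from 1.09 to 7.73 between CP and CM. The sum of listed transcripts moved 4 of 25 changes beyond the residual SD, without a change of sign. These were *MYH7B* (7.48), *MYL7* (4.18) and *MYL6* (1.46) from CP to CM and *MYL6* in line 1 (0.07). Without division by length, which puts *MYH6* ahead of both atrial light chains at CP and *MYH7* first at CM, 3 of 8 members kept their place at CP and 2 of 8 at CM. With lengths shortened by 200 bases, an alternative chosen after seeing the data, 6 of 8 kept it at CP and 6 at CM.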

Other observations

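The spread between libraries was solved for transcripts with a stage at 0. For MYL4-202 the SD among 3 wild-type libraries was 0.60 log2 units at CMes, 0.41 at CP and 0.28 at CM, and 0.57 within the UBE2B-/- lines. For MYL7-205 it was 0.55, 0.59 and 0.18, and 0.48 within the UBE2B-/- lines, and for MYL7-204 it was 0.95, 0.51 and 0.24, and 0.50. For MYL7-207 it was 0.41 at CMes, 0.52 at CP and 0.22 at CM. Of the 6 transcripts with a value at all 3 stages, these 4 had the lowest SD at CM. The other pair did not, with 0.60, 0.59 and 0.65 for MYL7-208 and 0.41, 0.56 and 0.66 for MYL7-210. Within the UBE2B-/- lines MYL7-208 had 0.47. MYH6-203 had 1.52 at CP, 0.85 at CM and 0.74 within the UBE2B-/- lines. These are values from few libraries, given without a test.

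Transcripts of *MYL7* other than MYL7-201 made up a smaller share of its listed counts per kb at CM than at CP. MYL7-207 went from 20.5% to 10.5% and MYL7-210, with a retained intron, from 9.31% to 2.01%.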
